A study of Mus musculus with 24 samples.

Results

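The 41 genes described here encode the enzymes that use glutathione or thioredoxin against oxidants and reactive compounds, together with the superoxide dismutases and catalase. They were taken as a list of redox enzyme symbols and found through their Ensembl identifiers among the 78275 genes of a count table from mouse lung, and 40 of the 41 passed the filter on low counts that left 17490 genes for testing. Gsta1 did not pass, with 0 to 13 reads per library. The list holds 4 alpha class and 6 mu class glutathione transferases, 8 of the omega, pi, theta, kappa and zeta classes, and 3 microsomal transferases. It also holds 5 glutathione peroxidases with glutathione synthetase, 6 peroxiredoxins, 4 genes of the thioredoxin and glutaredoxin system, and 3 superoxide dismutases with catalase.

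The series profiled lung tissue of male C57BL/6 mice, aged 20 weeks per the labels, in 8 groups of 3 libraries, and asked whether remote ischemic conditioning alters diesel exhaust fibrosis. C mice had no treatment, and RIC mice had only conditioning, in which blood flow to the left leg was stopped and restored in 3 cycles of 5 min each, on 3 days per week for 4 weeks. DE mice breathed diesel exhaust for 30 min per day on 5 days per week for about 8 weeks, and so did the mice of the 5 groups that follow. DE+PFD mice also received oral pirfenidone, which is used against lung fibrosis, on 6 days of each week at a daily dose of 300 mg/kg in 0.5% carboxymethylcellulose, and no group is labelled as given that vehicle alone. Preconditioning, with the leg cycles ahead of the exhaust, defines RIC+DE, and perconditioning, with the cycles in the exposure period, defines DE+RIC. Pirfenidone was added to the first in RIC+DE+PFD and to the second in DE+PFD+RIC. Each library is named by its group and its number in the label. The labels do not say whether the libraries of a group come from separate mice, so the p-values measure the spread between libraries, whatever its source.

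Glutathione transferases join glutathione to electrophilic compounds, among them products of inhaled combustion fumes, and so make them soluble and ready for export. Glutathione peroxidases and peroxiredoxins reduce hydrogen peroxide and lipid peroxides, and take their electrons from glutathione and thioredoxin, which the reductases recharge with NADPH. Superoxide dismutases turn superoxide into hydrogen peroxide, which catalase breaks down, and in the lung the club cells of the airways and the alveolar type 2 cells are known as rich sources of several of these enzymes.

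The chemistry of the peroxidases can be read in their codons, shown here because the members with the largest differences between groups include both kinds. In Gpx1, Gpx3 and Gpx4 the catalytic residue is selenocysteine, written by a TGA inside the reading frame, while Gpx7 and Gpx8 have a cysteine codon at the aligned place. Txnrd2, the mitochondrial thioredoxin reductase, has its TGA just before the stop codon. The capitals mark that codon in each coding sequence, taken from the reference transcripts of GENCODE M21 (GRCm38), 5′ to 3′.
Gpx1: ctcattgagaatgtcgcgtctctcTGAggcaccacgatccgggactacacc
Gpx3: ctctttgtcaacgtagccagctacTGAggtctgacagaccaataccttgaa
Gpx4: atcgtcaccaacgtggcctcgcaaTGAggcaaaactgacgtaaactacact
Gpx7: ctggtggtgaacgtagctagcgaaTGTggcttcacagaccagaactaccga
Gpx8: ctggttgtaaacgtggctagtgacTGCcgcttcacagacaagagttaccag
Txnrd2: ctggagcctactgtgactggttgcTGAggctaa
The marked codon is number 47 of 202 in Gpx1, 73 of 227 in Gpx3, 73 of 198 in Gpx4, 56 of 187 in Gpx7, 79 of 210 in Gpx8 and 526 of 528 in Txnrd2. No other member has a TGA inside its reading frame.

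Near-identical copies limit how well some members can be counted. Gstp1 and Gstp2, the pi class pair, have coding sequences of 633 bases that differ at 12 of them, and 6 of those lie in the first 90 bases, where the differing bases are in capitals.
Gstp1: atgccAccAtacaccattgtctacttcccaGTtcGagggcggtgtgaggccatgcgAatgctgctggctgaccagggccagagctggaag
Gstp2: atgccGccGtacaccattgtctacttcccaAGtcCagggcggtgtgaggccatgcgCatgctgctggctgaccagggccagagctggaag
Of all 50-base windows of a member's transcript, the share that also occurs in a transcript of another gene was 89.7% for Gsta1, 72.6% for Gstp2, 68.9% for Gpx4 (its pseudogene Gpx4-ps2), 64.2% for Gsta2 and 62.3% for Gstp1. It was 29.7% for Prdx5 (shared with Trmt112) and between 23.1% and 28.8% for Gstm3, Gstt3, Prdx2, Gstm1 and Sod1. The sources used here do not say how multiply matching reads were counted, and so the values of these 11 genes, all with over 20% of windows shared, are uncertain.

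Total counts ran from 12224106 to 16925635 in 9 libraries labelled with a date in March, from 3906807 to 11298160 in 14 of October, and came to 18494156 in 1 of November. The 3 RIC+DE libraries are all of March and the 3 DE libraries all of October, which leaves them without a common batch. The November library, DE+RIC 3, is alone in its batch, so the batch term takes it up and the DE+RIC contrast rests on the other 2 libraries. Markers of lung were abundant in every library, with the club cell secretoglobin Scgb1a1 at 15676 to 156877 and the type 2 cell surfactant gene Sftpc at 6988 to 68172 CPM (read counts relative to library size, scaled by TMM), and the liver gene Alb at 4.65 or less. Library RIC+DE+PFD 1 stood apart, with a TMM factor of 0.638 against 0.922 to 1.16 in the others, and the medians over members, and the named members whose value it moved by over 1.5 times, are given with and without it.

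By level per length of transcript, the cytosolic superoxide dismutase Sod1 led the list at a mean of 930 CPM per kb over the 24 libraries. The secreted plasma peroxidase Gpx3 followed at 777, the surfactant-handling peroxiredoxin Prdx6 at 622, the mu class transferase Gstm1 at 537 and the lipid peroxidase Gpx4 at 424 CPM per kb. Within families, Gsta3 led the alpha class at 220 CPM per kb, Gstp1 the classes grouped with pi at 212, the membrane enzyme Mgst1 the microsomal transferases at 285, and Txn1, the cytosolic thioredoxin, its group at 233. At the low end stood Gstm7 at 4.02, Gstm3 at 0.63, Gstt3 at 0.61 and Gsta1 at 0.28 CPM per kb. Neighbours in this order overlapped: Sod1 ran from 486 to 2967 CPM per kb over the libraries, Gpx3 from 487 to 1268 and Prdx6 from 368 to 1692.

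**Figure D1:**
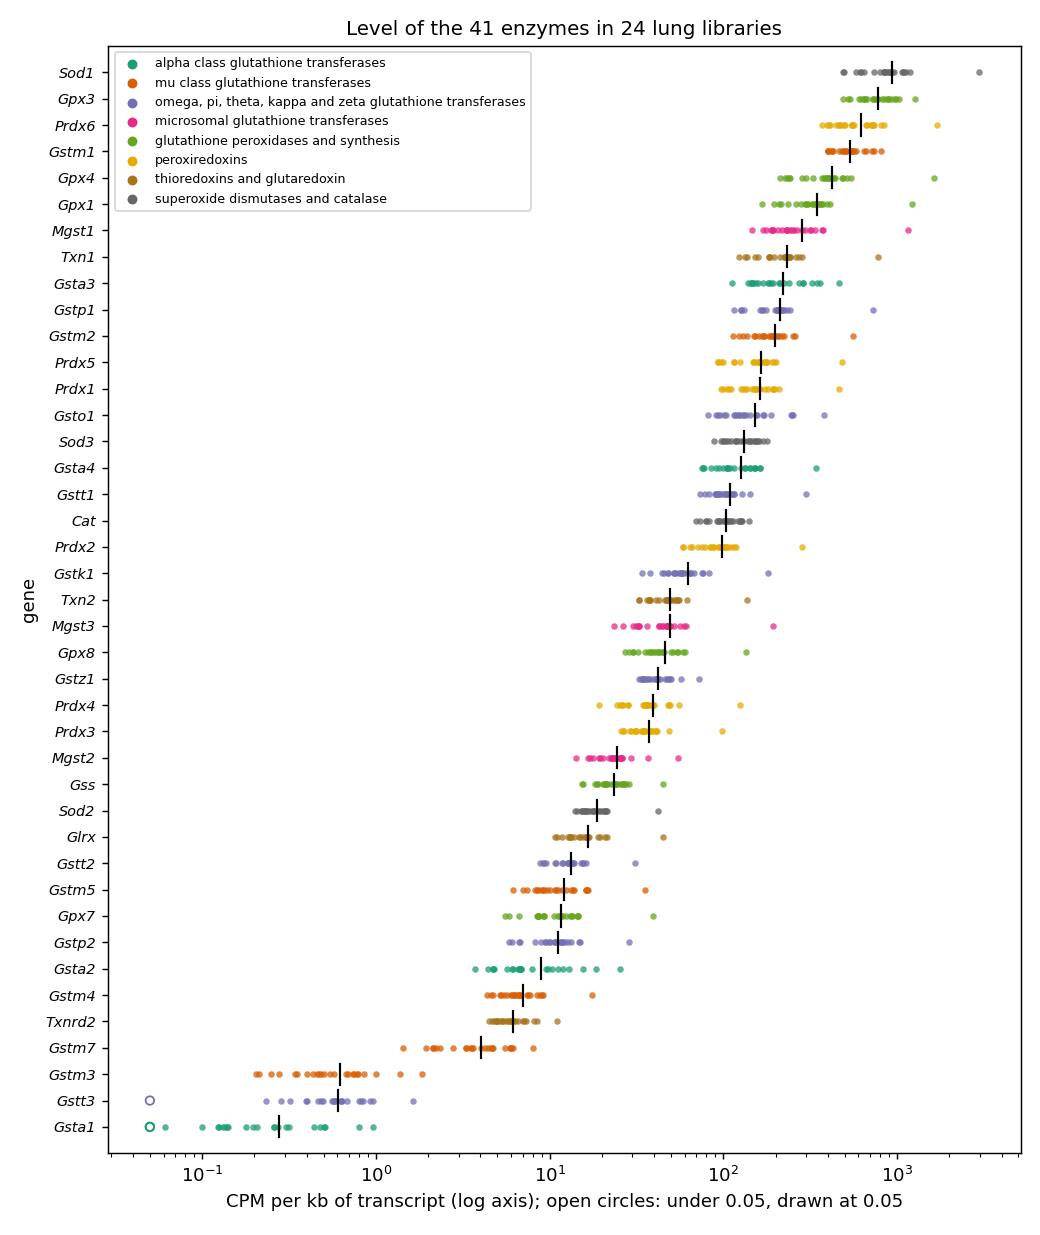
Level of each of the 41 enzymes (rows) in CPM per kb of transcript on a log axis, 1 point per library, coloured by family, with a black bar at the mean of the 24 libraries and open circles, drawn at 0.05, for values under 0.05. Sod1, with a mean of 930, Gpx3 with 777 and Prdx6 with 622 stand at the top, and Gstm3, Gstt3 and Gsta1 at the bottom, each with a mean under 1.

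One library set the upper end of nearly every member. RIC+DE+PFD 1 had the highest value of 37 of the 40 tested members, where 28.7% of all tested genes were highest in that library and 29.5% lowest. Its level was a median of 2.93 times the median of the other 23 libraries, and over 2 times for 34 of the 40. Mgst1 was highest by this measure, at 1347 CPM against a median of 270, or 4.98 times. Mgst3 stood at 4.31 times, Gpx4 at 4.14 times, Gpx1 at 3.78 times and Gpx7 at 3.73 times. The extracellular dismutase Sod3 was the only member that RIC+DE+PFD 1 held below the median of the others, at 370 against 492 CPM, and catalase, Cat, was near it at 319 against 268 CPM.

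Ribosomal protein genes moved the same way in that library, with a median log2 deviation of 2.04 from the median of all 24 libraries for 22 genes, against 1.54 for the 40 members. The 35 tested genes of the surrounding pathways (glutathione synthesis and recycling, thioredoxin reductases, methionine sulfoxide reductases, NADPH supply and the regulators Nfe2l2 and Keap1) had a median deviation of 0.32 there. The median transcript was 1289 bases long for the members, 2673 for the pathway genes and 956 for the ribosomal protein genes. Across the 40 members, which share the same library, Spearman's rho between transcript length and the ratio in RIC+DE+PFD 1 was −0.58. The part of length or of RNA quality in these values was not tested.

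The lowest values fell mostly in 3 other libraries. RIC+DE 1 held the lowest value of 14 members, RIC+DE 2 that of 8 and DE+PFD+RIC 2 that of 6, where 12.7%, 3.54% and 5.19% of all tested genes were lowest. The median member deviation was −0.40, −0.48 and −0.22 in the 3 RIC+DE libraries, −0.50 in DE+PFD+RIC 2 and −0.44 in RIC 1, all of March. It was also low in an October library, DE+PFD+RIC 3, at −0.30. Other March libraries were not low, with −0.04 in C 1, 0.04 in DE+PFD 1 and 0.13 in DE+PFD+RIC 1. The ribosomal protein median was −1.03, −0.69 and −0.60 in RIC+DE, −0.93 in DE+PFD+RIC 2 and −0.71 in RIC 1. Over the 23 libraries without RIC+DE+PFD 1, 30 of the 40 members had a lower median in the 8 of March than in the 14 of October: Gpx4 had 230 against 399 CPM and Gpx1 241 against 370 CPM. The alpha class did the opposite in all 3 of its tested members, with Gsta3 at a median of 371 CPM in March and 256 CPM in October. The months hold different groups, with RIC+DE all of March and DE all of October, so month and group are not separated here. The share of all genes with a lower March median was not computed.

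**Figure D2:**
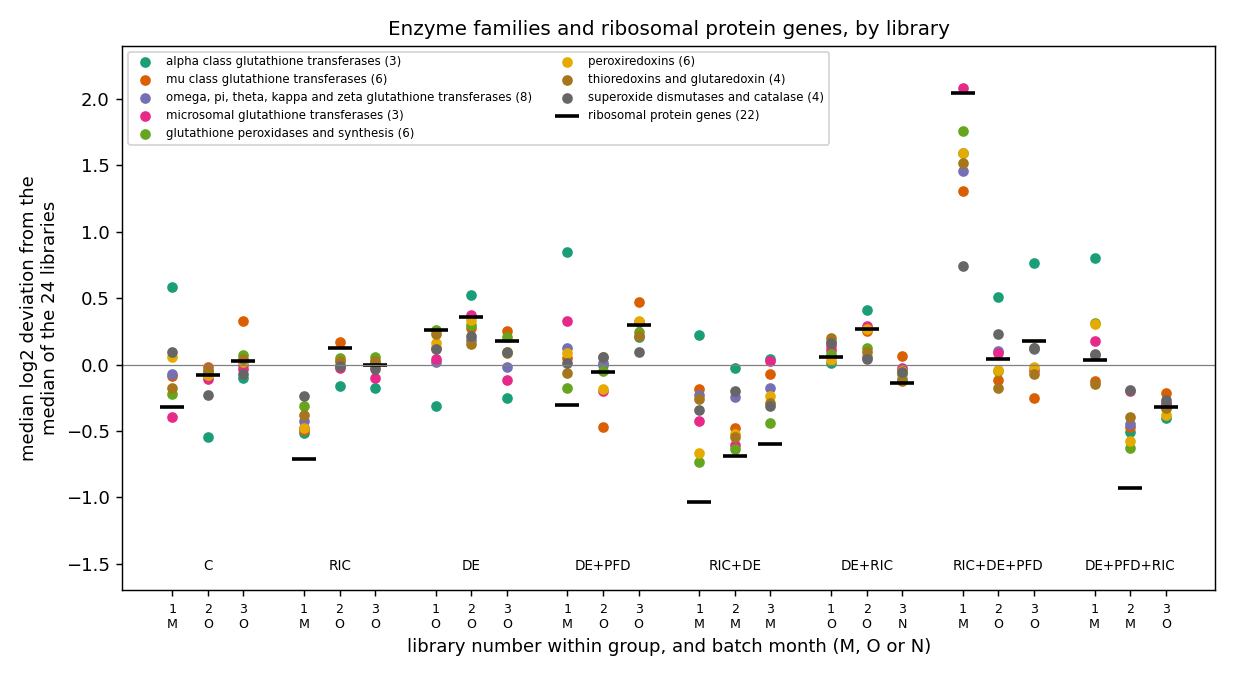
Median log2 deviation of each enzyme family (coloured points) and of 22 ribosomal protein genes (black bars) from the median of the 24 libraries, by library, with the number within the group and the batch month below and the count of genes in brackets. Every family is above 0 in RIC+DE+PFD 1, from 0.74 for the dismutases and catalase to 2.08 for the microsomal transferases. Among other libraries, the alpha class stands above the other families in C 1 at 0.58, DE+PFD 1 at 0.85 and DE+PFD+RIC 1 at 0.80, of March. It also does so in RIC+DE+PFD 2 at 0.51 and RIC+DE+PFD 3 at 0.77, of October, and is the lowest family in RIC 1 of March, at −0.51.

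Without RIC+DE+PFD 1, the members' values varied by a median coefficient of variation of 21.5% over the 23 libraries. The mitochondrial dismutase Sod2 was the steadiest at 12.9%, and the sparse Gstm3 the least steady at 59.0%. Among families the alpha class varied most, with a median of 33.9% and 46.2% for Gsta2. The library with the highest value was then spread over groups, with DE+PFD 3 highest for 8 members, C 1 for 7, DE+RIC 2 for 6 and DE 1 for 5.

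**Figure D3:**
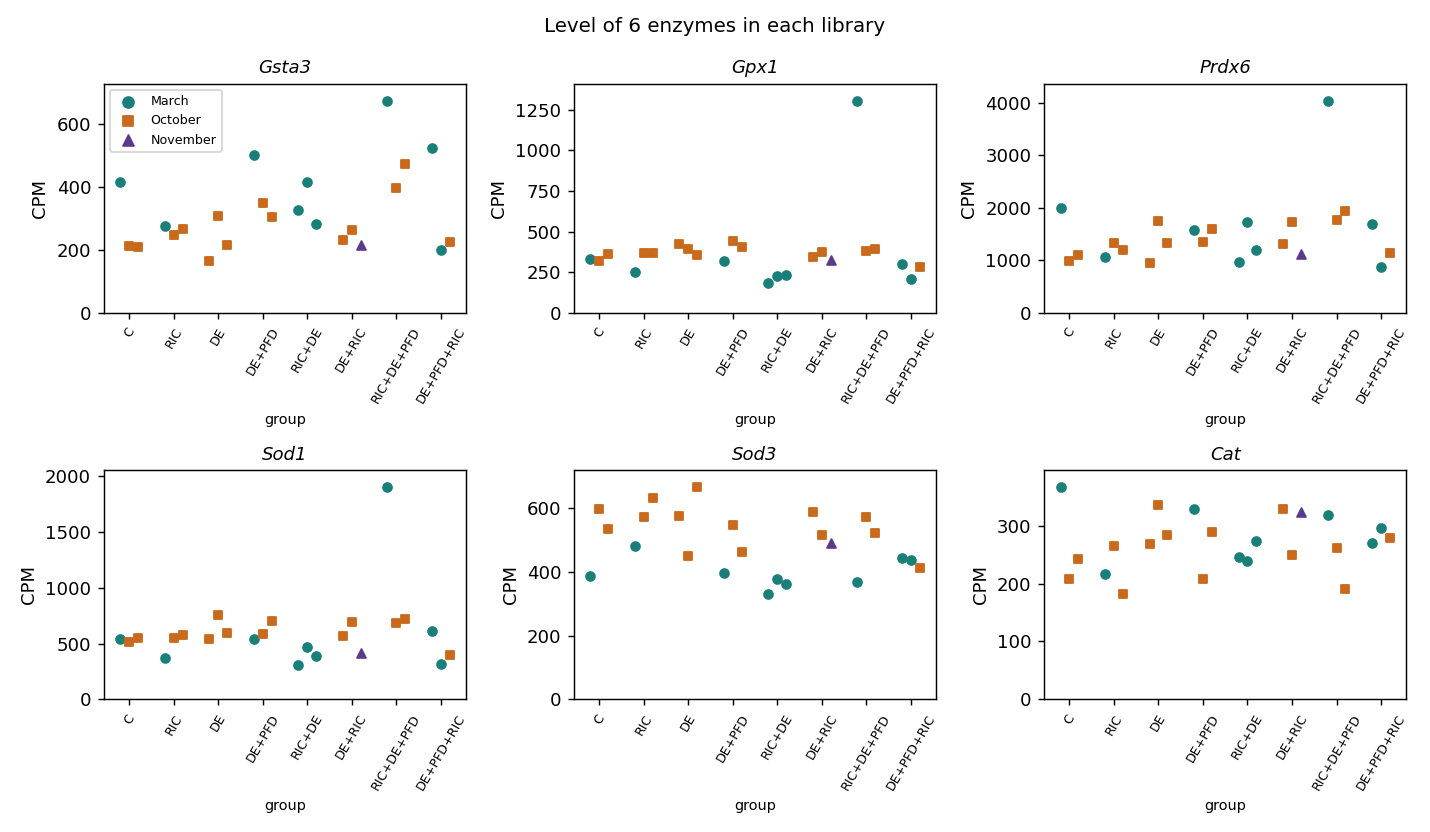
Level in CPM of 6 enzymes in each library (points, by group on the x axis, with colour and shape for the batch month). Gsta3, Gpx1, Prdx6 and Sod1 reach their highest values, 675, 1307, 4039 and 1902 CPM, in RIC+DE+PFD 1, while Sod3 and Cat in that library lie within the range of the others. In the other libraries Gsta3 runs from 164 to 524 CPM.

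No member passed the threshold, an adjusted p under 0.05 in edgeR's quasi-likelihood test, in any of the 9 comparisons, where 0% of the 17490 genes passed. DESeq2, which tested 41268 genes with all 41 members among them, called 0 members in the same 9 comparisons. It called 2 to 80 of those genes, or 0.00485% to 0.194%. The direction and spread of the members are therefore given as a description, beside the same figures for all genes. In whole tissue, fewer cells of a type and less RNA per cell cannot be told apart. The 5 treated groups were all set against the same 3 DE libraries.

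Exposure alone was read from DE against C. Most members lay a little higher in DE: 37 of 40 were above 0, with a median log2 difference of 0.27, against 49.9% of all genes above 0. The glutathione peroxidases with glutathione synthetase had a median of 0.41, the peroxiredoxins 0.33, and the mu class 0.21. edgeR had, at an unadjusted p under 0.05, 0 members, where 1.95% of all genes were higher and 1.38% lower. In 12 members the 3 DE libraries lay above the 3 C libraries, and in 0 below, where 7.6% and 6.86% of all genes did so. Gpx7, an oxidative-folding peroxidase of the endoplasmic reticulum, was at 11.2, 13.7 and 16 CPM in C and at 18.8, 18.7 and 18.8 CPM in DE. Its groups did not overlap, and its DE values were nearly equal.

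The members with the smallest p in DE against C were Sod2, the transferase Gstz1 of tyrosine breakdown, the mitochondrial peroxiredoxin Prdx3 and Gpx8, a peroxidase of the endoplasmic reticulum. Sod2 was at 122, 81.7 and 89.7 CPM in C and at 126, 113 and 99.8 CPM in DE, so that C 1 lay among the DE values. Its log2 difference was 0.36 ± 0.21 (SE, edgeR adjusted p = 0.988). Those of Gstz1, Prdx3 and Gpx8 were 0.40 ± 0.23, 0.44 ± 0.29 and 0.45 ± 0.33, with the same adjusted p in edgeR. In this comparison the 22 ribosomal protein genes were all above 0 with a median of 0.42, and 10 of 10 mitochondrially encoded mRNAs with a median of 0.87. The part of these in the members' shift was not tested. Without RIC+DE+PFD 1, which enters through the batch term, the members' median was 0.17 with 30 of 40 above 0.

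Conditioning of healthy mice, RIC against C, gave a median log2 difference of −0.08 with 14 of 40 members above 0, where 49% of all genes were. The sign depended on single libraries: the median was 0.18 with 31 of 40 above 0 without RIC 1, 0.01 without C 3, −0.16 without C 1, −0.21 without RIC 2 and −0.19 without RIC 3. It was −0.12 without RIC+DE+PFD 1, and 0.07 with 29 of 40 above 0 in October libraries alone. At an unadjusted p under 0.05 edgeR had 0 members, where 0.623% of all genes were higher and 0.577% lower. Only Gstp2 had all 3 RIC values below all 3 C values, at 4.86, 7.45 and 7.60 against 7.87, 8.58 and 8.66 CPM, and 0 members lay above, where 2.67% of all genes lay below and 2.24% above. The smallest p belonged to the alpha class Gsta2, at 16.2, 3.87 and 5.84 CPM in C and 4.08, 5.26 and 4.16 CPM in RIC. Its log2 difference of −0.73 ± 0.39 (SE, edgeR adjusted p = 1) depended on C 1 and RIC 1, the March libraries of the groups: it was −0.38 without C 1 and −0.23 without RIC 1. Gstm1, Cat and Gstm4 followed with −0.29 ± 0.23, −0.26 ± 0.21 and −0.32 ± 0.33.

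Pirfenidone with exposure, DE+PFD against DE, gave a median log2 difference of −0.14, with 10 of 40 members above 0, where 49.1% of all genes were. Without RIC+DE+PFD 1, which enters through the batch term, the median was −0.01 with 17 of 40 above 0, and in October libraries alone it was −0.04 with 16 of 40 above 0. It was −0.05 without DE+PFD 1, −0.08 without DE+PFD 2, −0.33 without DE+PFD 3 and −0.06 without DE 2. edgeR had, at an unadjusted p under 0.05, 0 members, where 1.23% of all genes were higher and 1.61% lower. In 4 members the DE+PFD libraries lay below the DE libraries (Gstm7, Gstt2, Gpx3 and Gpx7) and in 0 above, where 5.28% of all genes lay below and 5.89% above. Gpx3 was at 1438, 1497 and 1640 CPM in DE and at 1032, 1036 and 1392 CPM in DE+PFD. Its log2 difference was −0.37 ± 0.29 (SE, edgeR adjusted p = 1 when rounded). The mu class Gstm7 had −0.76 ± 0.52, and −0.51 without RIC+DE+PFD 1, and Txnrd2 had −0.29 ± 0.27.

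Gsta3, an alpha class transferase known for its activity toward carcinogens and steroids, went the other way. It was at 164, 308 and 216 CPM in DE and at 503, 348 and 306 CPM in DE+PFD, with 1 DE library inside the range of DE+PFD. The log2 difference was 0.51 ± 0.29 (SE, unadjusted p = 0.0936 in edgeR). In RIC+DE+PFD it was at 675, 397 and 474 CPM, above all 3 DE libraries, and its log2 difference of 0.93 ± 0.29 had the smallest p of any member there (edgeR adjusted p = 0.355). In DE+PFD+RIC it was at 524, 201 and 224 CPM, so that only its first library lay above the DE range. The difference between RIC+DE+PFD and DE for Gsta3 was 0.91 ± 0.30 without library RIC+DE+PFD 1, and in October libraries alone, at 0.91 ± 0.20 (edgeR adjusted p = 0.0685).

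Over the 3 pirfenidone groups against the other 3 exposed groups, Gsta3 again had the smallest p, with a log2 difference of 0.46 ± 0.17 (SE, unadjusted p = 0.0139 and adjusted p = 0.956 in edgeR). It was the only member at an unadjusted p under 0.05, where 1.93% of all genes were higher and 2.37% lower. The 9 pirfenidone libraries ran from 201 to 675 CPM with a median of 397, and the other 9 from 164 to 417 CPM with a median of 264. In October the 5 pirfenidone libraries were at 348, 306, 397, 474 and 224 CPM, and the 5 without it at 164, 308, 216, 231 and 264 CPM. In March they were at 503, 675, 524 and 201 CPM with pirfenidone and at 325, 417 and 282 CPM, all RIC+DE, without it. The groups overlapped in both months. The median log2 difference of the 40 members in this contrast was 0.15, with 35 above 0, where 54.7% of all genes were. It was −0.03 without RIC+DE+PFD 1, 0.27 without RIC+DE+PFD 2, 0.25 without RIC+DE+PFD 3 and 0.06 without DE+PFD 3. After Gsta3 by p, Gstt1, Gpx1 and the glutathione synthetase gene Gss had log2 differences of 0.31 ± 0.15, 0.39 ± 0.20 and 0.23 ± 0.14. Without RIC+DE+PFD 1 these were 0.14, 0.13 and 0.15. Club cell markers had a summed level of 53702 to 193160 CPM in RIC+DE+PFD, 42140 to 68444 CPM in DE+PFD and 42399 to 74184 CPM in DE, and their part in the Gsta3 values was not tested.

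The promoter of Gsta3 is shown because this gene had the pirfenidone difference with the smallest p, and that of Prdx1, a cytosolic peroxiredoxin known as a target of the transcription factor NRF2, because it bears a match to the same motif. The motif searched was TGACNNNGC, the core of the antioxidant response element that NRF2 binds, on both strands, in RefSeq windows of 300 bases, from 250 before to 50 after the start (GRCm38.p6). It occurred in 6 of the 37 members with a window (Gsta3, Gstm5, Gstm7, Mgst1, Prdx1 and Sod1), a share of 16.2%, against 13.99% of 27025 genes. Sequences run 5′ to 3′ along the gene, with the match in capitals, for Gsta3 at chr1:21240335-21240634 on the plus strand and Prdx1 at chr4:116685349-116685648 on the plus strand.
Gsta3: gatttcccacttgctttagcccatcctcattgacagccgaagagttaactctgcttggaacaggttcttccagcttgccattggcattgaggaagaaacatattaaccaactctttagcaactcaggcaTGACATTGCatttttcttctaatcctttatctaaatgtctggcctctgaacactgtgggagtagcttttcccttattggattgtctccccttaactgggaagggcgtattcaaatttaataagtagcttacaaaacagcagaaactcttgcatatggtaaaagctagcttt
Prdx1: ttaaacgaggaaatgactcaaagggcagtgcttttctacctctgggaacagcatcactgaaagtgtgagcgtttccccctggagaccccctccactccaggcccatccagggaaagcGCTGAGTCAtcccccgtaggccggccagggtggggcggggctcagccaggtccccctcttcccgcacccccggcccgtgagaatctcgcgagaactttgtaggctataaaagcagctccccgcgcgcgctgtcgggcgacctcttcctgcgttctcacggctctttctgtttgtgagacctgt
In Gsta3 the match begins at −121 from the start and reads TGACATTGC. In Prdx1 the leftmost base of the match, as printed, is at −133, and the match reads TGACTCAGC on the opposite strand. Such a match describes the letters only.

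Preconditioning with exposure, RIC+DE against DE, had the median farthest from 0 among the 9 comparisons. All 40 members lay below 0, with a median log2 difference of −0.69, against 50.3% of all genes above 0. At an unadjusted p under 0.05 edgeR had 19 members lower and 0 higher, where 9.47% of all genes were lower and 7.82% higher. The 3 RIC+DE libraries lay below the 3 DE libraries in 24 members and above them in 0, where 20.6% of all genes lay below and 21% above. The glutathione peroxidases with glutathione synthetase had a median of −1.13, the microsomal transferases −1.02, the peroxiredoxins −0.92 and the alpha class −0.40.

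Gpx8 had the smallest p, at 47.7, 56.1 and 53.4 CPM in DE and 29.9, 28.3 and 33.7 CPM in RIC+DE. The RIC+DE values were all below the DE values, and the fitted log2 difference was −1.22 ± 0.40 (SE, edgeR adjusted p = 0.274). Gpx4, the peroxidase that protects membranes from lipid peroxidation, was at 495, 468 and 417 CPM in DE and 205, 224 and 216 CPM in RIC+DE, with −1.37 ± 0.50. The March libraries of the other groups were at 286 CPM in C, 228 CPM in RIC, 313 CPM in DE+PFD, 522 and 232 CPM in DE+PFD+RIC and 1567 CPM in RIC+DE+PFD, so that RIC+DE lay below them by as little as the gap from 224 to 228 CPM. Mgst1 and Prdx4, a peroxiredoxin of the endoplasmic reticulum, had −1.28 ± 0.45 and −1.18 ± 0.44, with the same adjusted p of 0.274 in edgeR.

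The size of the RIC+DE shift depended on 1 library of another group. Without RIC+DE+PFD 1, the highest of the March libraries that set the batch term, the median over members was −0.38, with 37 of 40 below 0. The log2 differences were then −0.79 for Gpx8, −0.86 for Mgst1, −0.81 for Gpx4 and −0.73 for Prdx4. With the DE and RIC+DE libraries alone, where no batch term can be fitted, the median was −0.48 and edgeR called 15 members lower, but also 23.3% of all genes, and batch and group cannot be told apart there. The ribosomal protein genes had a median of −1.18 in the main comparison, all 22 below 0, and the mitochondrially encoded mRNAs one of −1.45. Skeletal muscle markers summed to 2123 and 1140 CPM in RIC+DE 1 and 3, and to 7.87 to 47.7 CPM in all other libraries, while 9 of 10 alveolar type 2 markers were below 0 with a median of −0.67. Adipocyte markers summed to 259 to 1960 CPM in DE and to 112 to 1308 CPM in RIC+DE, highest in DE 1 and RIC+DE 1. Cardiac muscle markers summed to 1067 to 1684 CPM in DE and to 1367 to 3808 CPM in RIC+DE. The part of these genes and markers in the members' values was not tested.

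Perconditioning, DE+RIC against DE, left the members centred on 0, with a median of −0.01 and 19 of 40 above 0, where 51.1% of all genes were, and the median was also −0.01 without RIC+DE+PFD 1. edgeR had, at an unadjusted p under 0.05, 0 members, where 0.669% of all genes were higher and 2.56% lower. In 4 members the DE+RIC libraries lay below the DE libraries (Gstm5, Gpx3, Gpx7 and Prdx3) and in 0 above, where 6.03% of all genes lay below and 6.31% above. Gpx3 was at 1160, 1154 and 1072 CPM in DE+RIC, close together and all below the lowest DE value of 1438 CPM. Its log2 difference was −0.40 ± 0.32 (SE, edgeR adjusted p = 1), fitted without the November value of 1072 CPM. Gstm5, Txnrd2 and Prdx3 followed with −0.45 ± 0.47, −0.25 ± 0.29 and −0.25 ± 0.32.

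**Figure D4:**
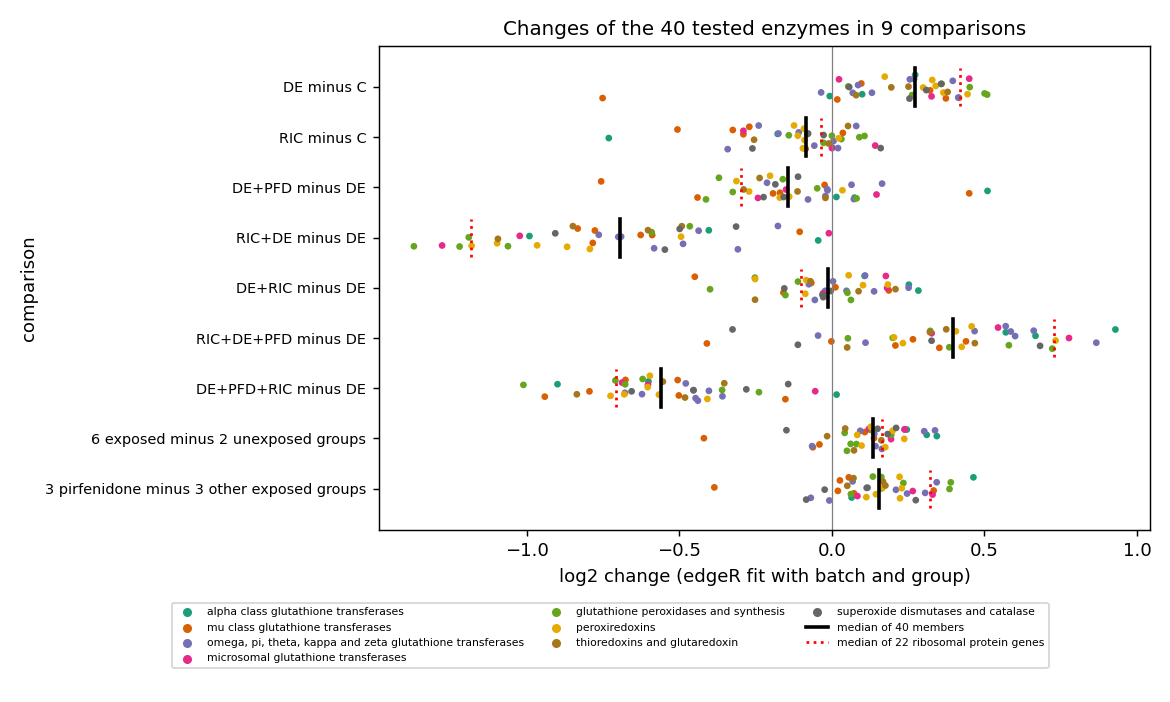
Log2 differences of the 40 tested enzymes (points, coloured by family) in the 9 comparisons (rows), from the edgeR fit with batch and group, with a black bar at their median and a dotted red bar at the median of 22 ribosomal protein genes. All members are below 0 in RIC+DE against DE, where the medians are −0.69 and −1.18, and in each row except RIC against C the red bar lies further from 0 than the black one.

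Preconditioning with pirfenidone, RIC+DE+PFD against DE, gave a median of 0.40 with 35 of 40 members above 0, where 54.2% of all genes were. At an unadjusted p under 0.05 edgeR had 4 members higher and 0 lower, where 4% of all genes were higher and 5.52% lower. These 4, all with their highest value in RIC+DE+PFD 1, were Gsta3, Gstp1, Prdx6 and the theta class Gstt1. Gstp1 was at 168, 175 and 167 CPM in DE and at 593, 180 and 199 CPM in RIC+DE+PFD, with a log2 difference of 0.87 ± 0.36 (SE, edgeR adjusted p = 0.485). Its value was 0.14 without RIC+DE+PFD 1. Prdx6, which also acts on surfactant phospholipids, was at 943, 1738 and 1322 CPM in DE and at 4039, 1757 and 1936 CPM in RIC+DE+PFD, with 0.73 ± 0.33, and 0.46 without RIC+DE+PFD 1. Gstt1 had 0.57 ± 0.27, and 0.10 without that library. In Gsta3, Gstp1, Gstt3 and Prdx6 the 3 libraries lay above those of DE, and in 0 members below, where 5.55% of all genes lay above and 6.41% below.

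Leaving out RIC+DE+PFD 1 turned this shift over: the median over members was −0.22, with 12 of 40 above 0, and with October libraries alone it was −0.21. Without RIC+DE+PFD 2 it was 0.72, and without RIC+DE+PFD 3 it was 0.69. Gpx1 was at 1307, 380 and 391 CPM in RIC+DE+PFD and at 423, 389 and 353 CPM in DE, so its other 2 libraries lay inside the DE range. Sod3 was at 370, 573 and 524 CPM in RIC+DE+PFD and at 575, 450 and 666 CPM in DE, and the groups overlapped. The ribosomal protein genes had a median of 0.73 in this comparison, all 22 above 0.

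Perconditioning with pirfenidone, DE+PFD+RIC against DE, gave a median of −0.56, with 39 of 40 members below 0, where 48.9% of all genes were above 0. edgeR had, at an unadjusted p under 0.05, 3 members lower and 0 higher, where 4.35% of all genes were lower and 4.88% higher. The 3 libraries lay below the DE libraries in 15 members and above them in 0, where 12.8% of all genes lay below and 15.4% above. Gpx7 was at 18.8, 18.7 and 18.8 CPM in DE and at 11.0, 7.55 and 11.1 CPM in DE+PFD+RIC, without overlap and with a log2 difference of −1.01 ± 0.42 (SE, edgeR adjusted p = 0.526). Txn1 was at 238, 285 and 254 CPM in DE and at 205, 145 and 160 CPM in DE+PFD+RIC, with −0.84 ± 0.37. Gsta2 and Sod2 had −0.90 ± 0.43 and −0.45 ± 0.22. The ribosomal protein genes were all below 0 with a median of −0.71, and without RIC+DE+PFD 1 the members' median was −0.31, with −0.66 for Gpx7 and −0.53 for Txn1.

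All 6 exposed groups against both unexposed groups gave a median of 0.14, with 34 of 40 members above 0, where 51% of all genes were. At an unadjusted p under 0.05 edgeR had 0 members, where 1.15% of all genes were higher and 1.87% lower. The member with the smallest p was Gsta4, a transferase specific for the lipid peroxidation product 4-hydroxynonenal, with 0.34 ± 0.18 (SE, edgeR adjusted p = 1). Its 6 unexposed libraries ran from 74.5 to 148 CPM with a median of 100.1, and its 18 exposed ones from 74.0 to 332 CPM with a median of 127, so the ranges overlapped. The 332 CPM belong to RIC+DE+PFD 1, and the highest value of the other libraries was 159 CPM. Sod2, Gstz1 and Gsta3 followed with 0.21 ± 0.12, 0.24 ± 0.13 and 0.25 ± 0.17. The median over members was −0.02 without RIC 1, 0.05 with 30 of 40 above 0 without RIC+DE+PFD 1, and 0.05 without C 1.

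Whether pirfenidone acted differently with and without conditioning was tested as an interaction, chosen after the values were seen. With preconditioning the pirfenidone difference exceeded that without it in all 40 members, where 48% of all genes were above 0, with a median of 1.28 on the log2 scale. This contrast includes RIC+DE, all of March, and DE, all of October, which share no batch. Its size therefore depends on the batch term, and batch and group are not fully separated in it. edgeR called 0 of the 40, where 0% of all genes passed, and had 26 at an unadjusted p under 0.05, all higher, where 18.2% of all genes were higher and 9% lower. The smallest p belonged to Gpx4, with 2.27 ± 0.60 (SE, edgeR adjusted p = 0.0742). Gpx1, Mgst1 and Gpx7 had 1.83 ± 0.49, 2.06 ± 0.56 and 1.99 ± 0.56, with the same adjusted p in edgeR. Without RIC+DE+PFD 1 the value was 0.71 for Gpx4, 0.51 for Gpx1, 0.88 for Mgst1 and 0.41 for Gpx7. DESeq2, with 41268 genes tested against 17490 in edgeR, called 16 members higher and 4.63% of its genes. Without RIC+DE+PFD 1 the median was 0.34, with 29 of 40 above 0, and edgeR called 0 members. The ribosomal protein genes had a median of 2.20. With perconditioning the interaction had a median of −0.45, −0.33 without RIC+DE+PFD 1 and −0.24 without DE+PFD 3, with 3 of 40 members above 0, where 51.1% of all genes were, and 0 at an unadjusted p under 0.05 in edgeR, where 1.5% of all genes were higher and 1.18% lower, and 0% passed. DESeq2 also called 0 members.

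Of 38 other genes of the glutathione and thioredoxin pathways, 35 were tested, and edgeR called 0 of them in the 9 comparisons. The gene with the smallest p is given for some of these comparisons only. In RIC against C it was glutathione reductase, Gsr, which returns oxidised glutathione to its reduced form, at 82.4, 61.3 and 70.7 CPM in C and 52.3, 53.6 and 44.3 CPM in RIC. The groups did not overlap, and the log2 difference was −0.51 ± 0.17 (SE, edgeR adjusted p = 1). In DE against C it was Glrx3, an iron-sulfur glutaredoxin, with 0.53 ± 0.24, and in RIC+DE against DE the methionine sulfoxide reductase Msra, with −0.82 ± 0.31, and −0.49 without RIC+DE+PFD 1. Srxn1, which repairs overoxidised peroxiredoxins, had the smallest p both in RIC+DE+PFD against DE, with 0.60 ± 0.21 (0.56 without RIC+DE+PFD 1), and in the 3 pirfenidone groups against the other 3, with 0.30 ± 0.13. It was at 22.5, 29.0 and 26.9 CPM in DE and at 62.8, 36.2 and 41.4 CPM in RIC+DE+PFD, and the groups did not overlap.

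In library RIC+DE+PFD 1 the pathway genes were mixed: 15 of the 35 had their highest value there, where 28.7% of all tested genes did. Another 14 were below their own median of the 24 libraries, and that share was not computed for all genes. Gclc, the catalytic subunit of the rate-limiting step of glutathione synthesis, was at 122 CPM there against a median of 155 CPM, and Gsr at 73.5 against 59.0 CPM. Txnrd1, the cytosolic thioredoxin reductase, was at 60.5 against 70.9 CPM, and Ggct, which acts in glutathione breakdown, had its highest value there at 19.1 against 9.43 CPM. Gpx2, Selenow, the methionine sulfoxide reductase Msrb1 and Glrx3 also had their highest values there. Selenow was at 857 against 247 CPM, Msrb1 at 261 against 77.3 CPM and Glrx3 at 147 against 58.3 CPM. All these genes were chosen after their values were seen. The pathway list had a median log2 difference of 0.10 in DE against C, −0.31 in RIC+DE against DE and 0.15 in RIC+DE+PFD against DE, where the members had 0.27, −0.69 and 0.40. These were 0.14, −0.30 and 0.07 for the list, and 0.17, −0.38 and −0.22 for the members, without RIC+DE+PFD 1.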

How the data were processed

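The data are read counts per gene from RNA of 24 mouse lung samples, extracted with TRIzol and prepared as oligo(dT), strand-specific libraries, per the labels' protocols. The authors deposited raw counts in 1 table, in whole numbers, for 78275 genes. Per the submitters' processing notes, FastQC 0.12.1, fastp 0.23.4, STAR 2.7.11b, featureCounts, R 4.4.1, DESeq2 and the build GRCm39 were used. The sources used here do not give the annotation release, the strand setting, how multiply matching reads were counted, or what the month in the sample labels stands for. Symbols were matched by Ensembl identifier for 51486 genes, which hold 98.4% of the counts, and the columns of other samples numbered 0.

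These counts went into edgeR 4.0.16 under R 4.3.3 (quasi-likelihood, TMM scaling, edgeR's filter by group, 1 term for the 8 groups and 1 for the 3 batches, all 24 libraries), with Benjamini-Hochberg adjustment over 17490 genes and a threshold of 0.05. Each standard error was taken from the fold change and its F statistic. Levels are CPM scaled by TMM, and per kb of the principal transcript of GENCODE M21 (GRCm38, used for lengths and coding sequences only). The procedure was checked on simulated counts.

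The 4 members with the smallest p in each comparison are named, with the leading member of each family by level and the pathway gene with the smallest p. Other members named by their values (Gpx7 in DE against C, Gpx1, Gpx4, Sod3, and members whose groups did not overlap) were chosen after these were seen. The members and lists were chosen with earlier results of these data known. The 2 interactions, the fit without RIC+DE+PFD 1 and RIC+DE 1, and the summaries of spread, length, shared windows and the pathway genes without RIC+DE+PFD 1 were added after the values were seen. The alternatives comprised DESeq2 1.42.0, edgeR with DESeq2 size factors, 2 other filters, other batch terms, October libraries alone, the compared groups alone, a replicate block, and each library left out.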

Additional observations from a re-analysis of the deposited data

How the results depend on the processing

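In the 9 comparisons edgeR called 0 members under every alternative run except 2, both in RIC+DE against DE. With no filter on low counts 9 members were lower, and 2.73% of the 41345 genes then tested were called. With the DE and RIC+DE libraries alone, which allows no batch term, 15 members were lower and 23.3% of all genes were called. In the added preconditioning interaction, DESeq2 called 16 members and 4.63% of the 41268 genes it tested. There edgeR called 20 members and 5.27% of 41345 genes with no filter. It called 9 members and 9.45% of all genes with no batch term, and 17 and 7.77% with the compared groups alone. Leaving out 1 library gave 0 to 19 members there. The count was 19 without RIC 1, RIC+DE+PFD 2 or RIC+DE+PFD 3, where 9.42%, 16.3% and 11.1% of all genes were called. No named member reversed its direction. October libraries alone could not be used for comparisons with RIC+DE, which has none, and the compared groups alone do not differ from all 24 libraries for the 6 exposed against both unexposed groups. The replicate block with the batch term called 0 members in every comparison, with a median of −0.69 in RIC+DE against DE. Replicate numbers did not pair the libraries: 16 of 84 same-number pairs had r over 0.1, the lowest r was −0.389, and 8 of 24 libraries correlated best with one of their own number. Totals as low as 3906807 counts limit what can be detected for sparse members such as Gstm3, Gstt3 and Gsta1.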
